A study of Mus musculus with 12 samples.

Results

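The epithelium of the distal small intestine and that of the colon were compared in control mice, to describe how far the cells lining these neighbouring segments differ when *Nfat5* is intact. The comparison took all 3 arrays of ileal epithelial cells (S-IECs) and all 3 arrays of colonic epithelial cells (L-IECs) from *Nfat5*fl/fl mice, which is 6 of the 12 arrays of the series. It used every transcript cluster, the array's unit of measurement for 1 gene or transcript, that carries a gene symbol. These were 25341 of 41345 clusters, 23521 of them with 1 symbol and 1820 with several.

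The mice were male, on a C57BL/6J background, 11 weeks old and untreated. They carried loxP-flanked *Nfat5* alleles and no Cre, so *Nfat5* was not deleted in either tissue. The other 6 arrays came from mice labelled *Nfat5*IEC-KO, in which Cre under the villin promoter acts on the same floxed alleles in the epithelium of both segments. Epithelial cells were released from ileum or colon with EDTA, total RNA was extracted, and each sample was hybridised to 1 Affymetrix mouse array. The labels number the mice of each group from 1 to 3 and do not say whether ileum and colon of the same number came from 1 animal.

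The ileum takes back bile acids and vitamin B12, finishes the digestion of sugars, peptides and fats at the brush border of its villi, and keeps antimicrobial Paneth cells at the base of its crypts. The mouse colon has neither villi nor Paneth cells. Its cells absorb sodium, chloride, water and the short-chain fatty acids made by bacteria, and its goblet cells lay down a thick mucus. The identity of each segment is set in part by transcription factors such as the GATA, CDX and HNF4 proteins and by Hox genes, whose order along the chromosome follows the body axis.

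All values below are log2 array values as deposited, and a difference is always ileum minus colon, so that 1 on this scale is 2-fold. Medians of the 6 arrays lay between 4.49 and 4.57. Arrays of the same tissue correlated across clusters at r = 0.990 to 0.991, and ileal with colonic arrays at 0.944 to 0.954. The table holds no detection calls, so a value near the array median cannot be told from background and a fold against such a value may understate the change. Levels of different genes were not tested against each other, since each cluster has its own probes. Averages of gene lists are given as levels only and do not measure the share of a cell type.

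Markers of epithelium averaged well above the array median on every array. The 10 pan-epithelial genes measured averaged 10.6 to 10.8 on all 6 arrays, and 4 of them were higher in ileum and 2 in colon. The largest difference among them was that of *Vil1* (villin, a brush border protein) at 1.498, and *Krt18* and *Cdh1* (E-cadherin) were at −0.60 and −0.51. *Epcam*, the epithelial adhesion molecule, read 10.60, 10.61 and 10.72 in ileum and 10.42, 10.34 and 10.40 in colon (adjusted p = 0.120). Among the other cell types that an EDTA fraction can hold, 17 stromal, muscle, endothelial and glial genes averaged 4.43 to 4.60, with 0 higher in ileum and 1, *Dcn* (decorin, a fibroblast product), higher in colon. Exocrine pancreas and erythrocyte genes numbered 10 and averaged 4.10 to 4.34, and the 1 called was *Cela1*, an elastase (difference −2.80). Of 9 genes of stratified squamous epithelium 1 was called (*Krtdap*, 0.44, not called without ileum replicate 3), and the list averaged 3.52 to 3.78. Myeloid genes averaged 4.46 to 4.67 in ileum and 4.22 to 4.34 in colon, with 2 of 17 higher in ileum and 1 higher in colon. Over all clusters tested, 7.20% were higher in ileum and 10.4% in colon, so the few calls of these non-epithelial lists were not read as differences in cell content.

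Between the segments, 1824 clusters were higher in ileum, 7.20% of those tested, and 2637 were higher in colon, 10.4% (limma, adjusted p under 0.05). With a difference of at least 2-fold as well, 535 were higher in ileum (2.11%) and 727 in colon (2.87%). The remaining 20880 clusters, 82.4%, did not pass the test, and the median difference over all clusters was −0.000313. Differences of 4-fold or more numbered 224 toward ileum and 186 toward colon. The first principal component of all 12 arrays held 72.2% of the variance and separated ileum from colon, whatever the genotype label.

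Among the 20 named genes with the largest difference toward ileum, 6 were alpha-defensins of Paneth cells. The others included *Lyz1* (lysozyme), *Fabp6* (the ileal bile acid binding protein), *Clca4b*, *Olfm4*, the brush border enzymes *Anpep*, *Enpp7* and *Plb1*, and the cholesterol transporter *Npc1l1*. The 20 largest toward colon were led by *Mptx1* (mucosal pentraxin) at −7.22, *Tgm3* (transglutaminase 3) at −6.43 and *Car2* (carbonic anhydrase 2) at −5.97.

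**Figure D1:**
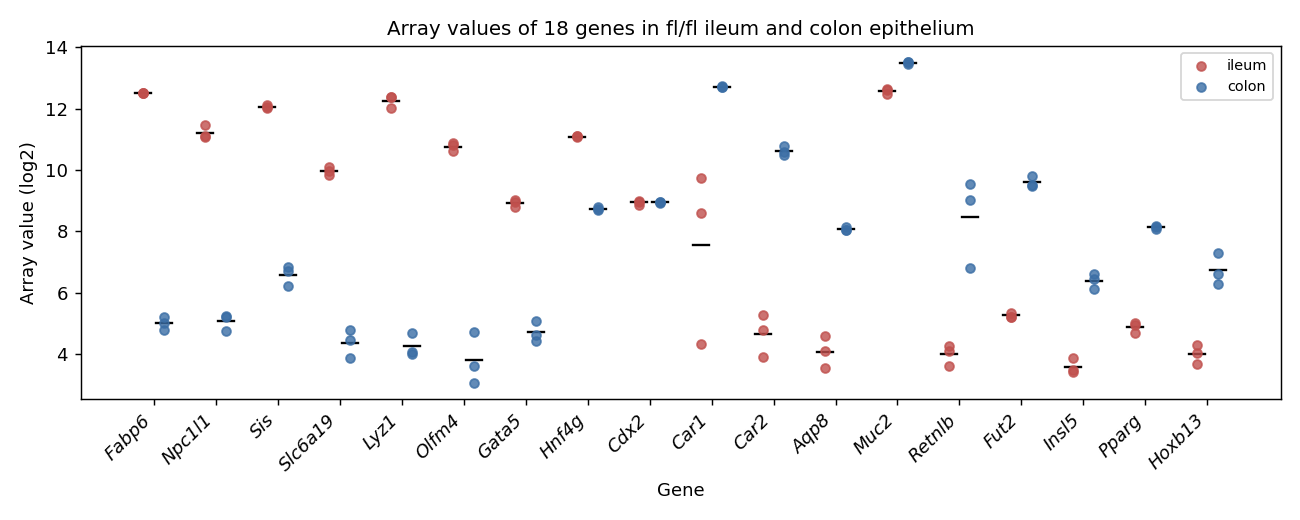
Array values (log2, vertical axis) of 18 genes in fl/fl ileum (red) and colon (blue), 1 point per array and a bar at the mean of 3. The tissues stand apart for every gene shown other than *Cdx2*, and the ileal points of *Car1* spread from 4.32 to 9.75.

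Bile acid handling was the first ileal function examined. This list and those below were chosen with earlier results of these data known. Their counts therefore describe the chosen genes and not whole gene families, beside 7.20% of all clusters higher in ileum and 10.4% in colon. Of 12 measured genes 7 were higher in ileum and 1 in colon, with a median difference of 0.86. *Fabp6* read 12.53, 12.52 and 12.53 in ileum and 5.22, 4.80 and 5.02 in colon. The groups lay far apart, 182.5-fold apart (log2 difference 7.51, limma adjusted p = 3.73e-09). *Slc10a2*, which imports bile acids from the lumen, read 9.97, 10.69 and 10.46 against 8.60, 9.07 and 8.91, a difference of 1.51 (adjusted p = 0.000651). Its colonic values were thus well above the array median. *Slc51a*, a subunit of the basolateral exporter, differed by 2.97 and *Fgf15*, the hormone that the ileum sends to the liver in response to bile acids, by 3.81. *Nr1h4*, which encodes the bile acid receptor FXR, differed less, by 0.85 (adjusted p = 0.00301). Export pumps pointed in opposite directions. *Abcc2*, on the apical side, was higher in ileum by 5.39 and *Abcc3*, on the basolateral side, higher in colon (−2.22). *Vdr*, *Nr1i2*, *Nr0b2* and *Gpbar1* did not pass the test, with differences from −0.08 to 0.43.

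Fat absorption genes were mostly higher in ileum. All 24 measured genes were called, 22 toward ileum and 2 toward colon, with a median of 2.34. *Npc1l1*, the uptake protein for cholesterol, read 11.47, 11.12 and 11.09 in ileum against 5.21, 5.22 and 4.76 in colon. *Mttp*, which loads lipid onto nascent chylomicrons, read 10.37, 10.03 and 10.15 against 3.98, 4.61 and 4.34, a difference of 5.87 (adjusted p = 6.49e-08). The groups did not overlap for either gene. The apolipoproteins followed at 5.53 for *Apoa1*, 4.05 for *Apoa4* and 3.13 for *Apob*. *Dgat1* and *Mogat2*, which rebuild triglyceride inside the enterocyte, differed by 3.26 and 3.30. *Abcg5* and *Abcg8*, partners that return plant sterols to the lumen, differed by 3.72 and 4.41. Toward colon stood *Scarb1*, a lipoprotein receptor (−1.36), and *Plin2*, a coat protein of lipid droplets (−0.56). The *Plin2* call was lost without ileum replicate 1, ileum replicate 3 or colon replicate 3.

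Digestive enzymes of the brush border had the highest median of the nutrient lists, 3.45, and 18 of 20 measured genes were higher in ileum with 0 higher in colon. *Anpep* (aminopeptidase N) read 12.64, 12.55 and 12.65 in ileum and 5.70, 5.28 and 5.97 in colon, 124-fold apart (adjusted p = 2.94e-08). *Sis* (sucrase-isomaltase) read 12.13, 12.03 and 12.05 against 6.23, 6.71 and 6.84. The tissues did not overlap for either enzyme. *Enpp7*, the alkaline sphingomyelinase, differed by 6.68, *Lct* (lactase) by 5.40, *Treh* (trehalase) by 3.79 and *Alpi* (intestinal alkaline phosphatase) by 3.60. *Mep1a* (meprin alpha) and *Mgam* (maltase-glucoamylase) were the members with colonic means above 9.7, and they differed by 0.78 and 2.14. *Tmprss15* and *Folh1* were near the floor in both tissues and did not pass the test.

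Of 27 genes for sugar, amino acid, mineral and vitamin uptake, 20 were higher in ileum and 4 in colon, with a median of 2.27. The amino acid carrier *Slc6a19* read 10.10, 9.96 and 9.84 in ileum against 3.86, 4.47 and 4.80 in colon, 48.3-fold apart. *Slc15a1*, the peptide carrier, differed by 2.27, and *Slc5a1*, the sodium-coupled glucose carrier, by 2.54. *Slc2a2* and *Slc2a5*, which carry glucose and fructose, differed by 4.22 and 2.04. *Cubn* and *Amn*, the partners of the vitamin B12 receptor of the ileum, differed by 5.11 and 2.91. The 4 genes higher in colon were 3 of mineral transport and 1 amino acid carrier. *S100g*, a calcium-binding protein, read 4.93, 5.52 and 5.98 in ileum and 8.91, 9.29 and 9.44 in colon (difference −3.74). *Trpv6*, an apical calcium channel, was at −1.52, *Slc36a1* at −0.71, and *Slc40a1* (ferroportin, the cellular iron exporter) at −2.93. Ileal values of *Slc40a1* were 5.33, 6.58 and 6.87, with replicate 1 lowest.

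The regulatory sequence next to these genes was read for binding words of the intestinal factors. RefSeq promoter windows of GRCm38.p6, 250 bases before to 50 after each start, were available for 364 of 490 genes at least 2-fold higher in ileum, for 507 of 678 at least 2-fold higher in colon, and for 16918 of all 22180 genes. The HNF4 word CAAAGTCCA, on either strand, stood in 2.98% of 470 ileal windows, 0.906% of 662 colonic windows and 0.473% of all 20520 windows. The word AGATAA of GATA factors stood in 11.9%, 8.31% and 9.67%, and the CDX word TTTATGG in 2.98%, 2.72% and 2.42%. A longer HNF1 motif was found in 2, 1 and 12 windows. These are counts of letters, with no test, and a match is not evidence of binding. Of the genes already described, *Alpi*, *Treh* and *Slc3a1* (an amino acid carrier subunit, difference 2.50) held the HNF4 word, as did the more colonic *Trpv6*, and *Lct* held the GATA word in both orientations 5 bases apart. Upstream stretches of 250 bases ending at the start site are shown for 3 of them, 5′ to 3′ on the gene's strand, with the words in capitals, as examples of where these letters lie in promoters of strongly ileal genes.
Alpi promoter, minus strand of chr1:87101607-87101856: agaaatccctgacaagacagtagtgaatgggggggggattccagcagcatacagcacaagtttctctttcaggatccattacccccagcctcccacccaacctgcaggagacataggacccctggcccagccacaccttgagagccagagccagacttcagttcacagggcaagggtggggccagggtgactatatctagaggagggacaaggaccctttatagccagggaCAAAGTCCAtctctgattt
Treh promoter, plus strand of chr9:44672983-44673232: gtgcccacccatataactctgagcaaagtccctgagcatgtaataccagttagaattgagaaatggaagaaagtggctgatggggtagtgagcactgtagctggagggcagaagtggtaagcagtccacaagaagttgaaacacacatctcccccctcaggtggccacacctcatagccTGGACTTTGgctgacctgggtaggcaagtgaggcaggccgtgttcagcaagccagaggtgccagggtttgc
Lct promoter, minus strand of chr1:128328319-128328568: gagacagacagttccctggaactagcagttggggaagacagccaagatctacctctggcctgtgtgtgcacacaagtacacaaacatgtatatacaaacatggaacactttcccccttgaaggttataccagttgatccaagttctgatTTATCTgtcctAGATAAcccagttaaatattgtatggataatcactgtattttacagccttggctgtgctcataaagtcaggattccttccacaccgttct
In these windows the HNF4 word begins at base 232 for *Alpi* and at base 180 for *Treh*, and the GATA words of *Lct* begin at bases 150 and 161, counted from the first base shown.

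Transcription factors were called in both directions. Of 23 measured, 7 were higher in ileum, 5 in colon and 11 did not pass the test, which does not show that those 11 are equal. *Gata5* read 9.04, 8.79 and 8.96 in ileum and 4.43, 5.07 and 4.63 in colon, 18.7-fold apart (adjusted p = 3.86e-07). *Gata4* differed by 1.27, while *Gata6* read 8.45, 8.48 and 8.31 against 8.10, 8.14 and 8.19 and did not pass (adjusted p = 0.111). Within this family, therefore, the differences ran from 0.27 to 4.22. *Hnf4g* was higher in ileum by 2.36 and its relative *Hnf4a* was within 0.05 of equal (adjusted p = 0.821). *Maf*, a basic leucine zipper factor, differed by 3.97, and *Creb3l3*, a membrane-bound factor of lipid metabolism, by 1.97. *Cdx1* was higher in colon (−0.71), while *Cdx2*, the broad intestinal identity factor, was at 8.87, 8.96 and 9.0 against 8.97, 8.92 and 8.95. The difference for *Cdx2* was −0.0037 (standard error 0.10, adjusted p = 0.986), less than the spread between replicates. The largest differences toward colon were those of *Foxd2* (−2.77) and *Tfcp2l1* (−2.27), followed by *Sox9* (−1.23) and *Klf4* (−1.001).

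Of 36 measured Hox genes 16 were higher in colon and 0 in ileum, against backgrounds of 10.4% and 7.20% of clusters. They were unevenly spread over the 4 gene clusters. The HoxA cluster held 8 of its 9 measured genes among those called, from *Hoxa2* (−1.32) to *Hoxa13* (−1.72), with *Hoxa7* at −2.31 (4.92, 4.55 and 4.62 in ileum, 6.97, 7.02 and 7.04 in colon). In the HoxB cluster 6 of 10 were called, with a median of −0.60. *Hoxb13* read 3.67, 4.31 and 4.02 in ileum and 6.30, 6.59 and 7.31 in colon, the largest difference of the 36. In the HoxD cluster only *Hoxd11* (−0.97) and *Hoxd13* (−2.05) of 8 passed the test. In the HoxC cluster 0 of 9 did, with differences from −0.27 to 0.25 and no mean above 4.55 in either tissue. The 3 paralogues numbered 13 in HoxA, HoxB and HoxD were all called. Several of these genes neighbour or overlap each other and antisense transcripts, so a cluster's signal may not belong to 1 gene alone.

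**Figure D2:**
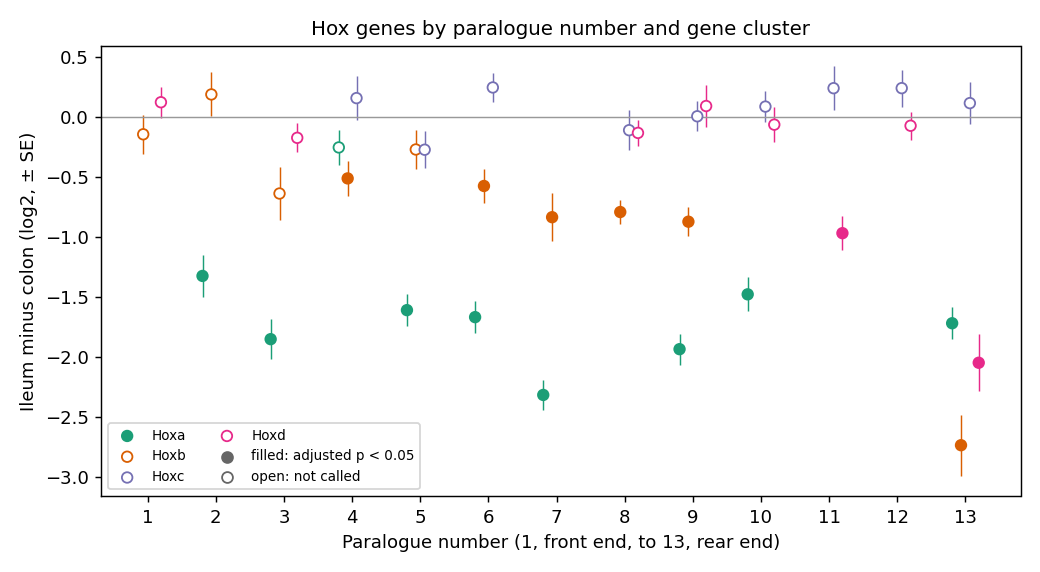
Difference between ileum and colon (log2, ± SE, 3 arrays per tissue) of 36 Hox genes by paralogue number, coloured by gene cluster and filled where the adjusted p was under 0.05. All HoxA genes lie below 0, *Hoxb13* is lowest, and HoxC genes stay between −0.27 and 0.25.

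MicroRNA genes were called toward ileum about as often as all clusters, and toward colon less often. Clusters of 1 microRNA symbol numbered 498, and 31 were higher in ileum and 17 in colon. Counted once per gene, 6.57% of 472 were higher in ileum, near the 7.20% of all clusters. Toward colon the share was 3.6%, against 10.4%. At least 2-fold were 9 and 3 of the 498 clusters. MicroRNA genes lie outside the rule for named genes, and those named were chosen after their values were seen. The array labels total RNA, so such a cluster reads the transcript around the hairpin, and its value is no measure of the mature strand. Where the hairpin lies inside another gene, the host RNA can add to it.

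*Mir215* and *Mir194-1*, whose hairpins start 262 bases apart on chromosome 1, were the microRNA genes with the largest differences. *Mir215* read 8.15, 7.30 and 7.20 in ileum against 5.07, 4.95 and 5.54 in colon (difference 2.36, adjusted p = 0.000212). *Mir194-1* read 8.76, 7.81 and 7.86 against 5.96, 6.05 and 6.15 (difference 2.09, adjusted p = 0.000245), with ileum replicate 1 highest for both. *Iars2*, a gene whose span holds both hairpins, differed the other way, by −0.51 (limma adjusted p = 0.0376). Whether it is read from the same strand as the hairpins was not checked, so it may not be their host. A second copy, *Mir194-2* on chromosome 19, differed by 0.84. *Mir31* differed by 1.41, and *Mir18b* and *Mir363* of a cluster on the X chromosome by 1.27 and 0.71. *Mir32* differed by 0.65, a call lost without ileum replicate 1. These 4 genes read between 1.95 and 4.72 on all arrays, near or below the array median. Toward colon, *Mir196a-1* read 5.85, 5.82 and 5.90 in ileum and 7.32, 7.10 and 7.29 in colon (difference −1.38, adjusted p = 2.61e-05). It starts 6166 bases from *Hoxb9*, a gene that was itself at −0.87. *Mir200a* and *Mir200b*, 785 bases apart on chromosome 4, were at −0.95 and −1.24.

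The mature strands of these genes are shown because the seed, bases 2 to 8 from the 5′ end, sets which messages a microRNA can pair with. The sequences are those of RefSeq on GRCm38.p6, with the seed in capitals. Of 48 called microRNA genes 42 had an entry there.
miR-215-5p: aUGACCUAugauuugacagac
miR-194-5p: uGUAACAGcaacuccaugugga
miR-31-5p: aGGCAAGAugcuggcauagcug
miR-18b-5p: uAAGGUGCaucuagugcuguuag
miR-363-3p: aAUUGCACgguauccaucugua
miR-32-5p: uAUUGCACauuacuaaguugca
miR-196a-5p: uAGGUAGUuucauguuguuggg
miR-200a-3p: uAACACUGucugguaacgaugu
miR-200b-3p: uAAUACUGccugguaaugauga
Both *Mir194* genes give the same miR-194-5p. Seeds were otherwise shared by 2 pairs of the called genes. *Mir363* and *Mir32*, both higher in ileum, share AUUGCAC, and the 5p strands of *Mir200a* and *Mir200b*, both higher in colon, share AUCUUAC.

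**Figure D3:**
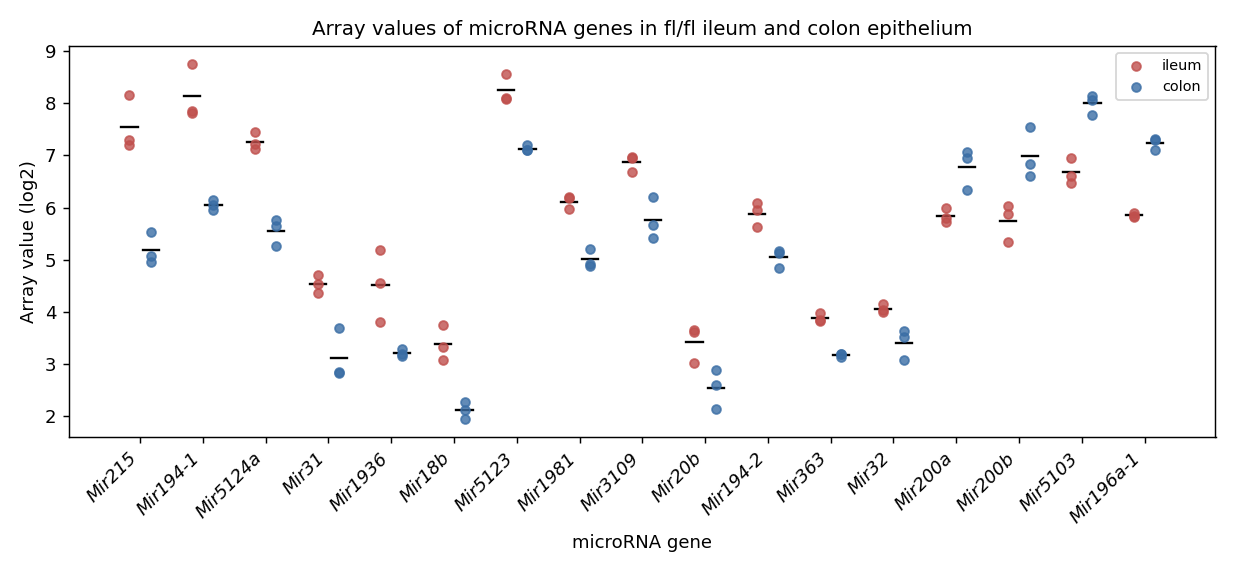
Array values (log2, vertical axis) of 17 microRNA genes in fl/fl ileum (red) and colon (blue), 1 point per array and a bar at the mean of 3, ordered by the difference. *Mir215* and *Mir194-1* stand at the ileal end and *Mir196a-1* at the colonic end, with no overlap between the tissues.

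Paneth cell genes were the most divergent of the cell type lists. Of 12 measured, 10 were higher in ileum and 1 in colon, with a median of 5.52. *Lyz1* read 12.03, 12.40 and 12.39 in ileum and 4.69, 4.07 and 3.98 in colon, 260-fold apart (adjusted p = 3.29e-08). *Defa22* read 13.33, 13.44 and 13.37 against 4.83, 4.57 and 3.36, the largest difference of the whole comparison at 9.13. The colonic values were at or below the array median for both. All 10 alpha-defensin genes with a cluster of their own were higher in ileum, with a median of 6.17, though these genes are near-identical copies and their probes may read each other. *Mmp7*, the matrilysin that activates alpha-defensins, differed by 4.68, and *Itln1* (intelectin) by 5.68. The pentraxins divided the list, with *Mptx2* at 5.80 and its close relative *Mptx1* at −7.22. *Mptx1* read 2.88, 3.27 and 4.93 in ileum and 11.22, 11.30 and 10.22 in colon. *Ang4* (angiogenin 4) did not pass the test, at 9.84, 10.11 and 10.25 against 10.86, 10.51 and 8.68. Colon replicate 3 was the low array for *Ang4*, and without it the difference was −0.62 (adjusted p = 0.0484).

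Ion and water transport genes of the colon formed the counterpart. Of 29 measured genes 22 were higher in colon and 3 in ileum, with a median of −1.85. The carbonic anhydrases, which supply bicarbonate and protons for electroneutral salt absorption, were among the largest. *Car2* read 3.90, 5.27 and 4.79 in ileum and 10.59, 10.50 and 10.78 in colon, and *Car4* differed by −2.94. *Car1* read 12.71, 12.75 and 12.73 in colon, while its ileal values were 4.32, 9.75 and 8.59. The difference for *Car1* was −5.17 over all arrays (adjusted p = 0.0114) and −3.56 without ileum replicate 1 (adjusted p = 0.000182). The whole list averaged 7.23, 7.65 and 7.51 on the ileal arrays and 9.27 to 9.29 on the colonic ones, so ileum replicate 1 was also lowest for the list.

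The exchangers and pumps followed. *Atp12a*, the colonic proton-potassium pump, differed by −4.98, and *Slc26a3*, the chloride-bicarbonate exchanger, by −1.85. *Slc9a3*, the apical sodium-proton exchanger, read 7.65, 6.97 and 7.17 in ileum and 10.27, 10.51 and 9.87 in colon, 7.74-fold apart (adjusted p = 1.30e-05). The water channels *Aqp8* and *Aqp4* differed by −4.00 and −4.01, with 8.06, 8.13 and 8.06 against ileal values of 3.53, 4.11 and 4.59 for *Aqp8*. *Slc6a14*, an amino acid carrier, differed by −5.40 and *Slc16a1*, a carrier of short-chain fatty acids, by −1.87. Of the subunits of the epithelial sodium channel, *Scnn1a* and *Scnn1b* were higher in colon (−2.57 and −1.31) and *Scnn1g* did not pass the test (−0.69, adjusted p = 0.0805). *Hsd11b2*, which shields the mineralocorticoid receptor from glucocorticoids, was at −2.61 and the receptor, *Nr3c2*, at −0.90. The 3 genes higher in ileum were *Guca2b* (uroguanylin, 3.98), the kinase *Sgk1* (1.26) and the bicarbonate cotransporter *Slc4a4* (0.36). *Slc4a4* lost its call without any 1 array, with a difference that stayed positive. *Guca2b* and *Guca2a* (guanylin, −0.75), both ligands of the receptor *Gucy2c*, thus pointed in opposite directions, while *Gucy2c* itself did not pass the test (−0.31).

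**Figure D4:**
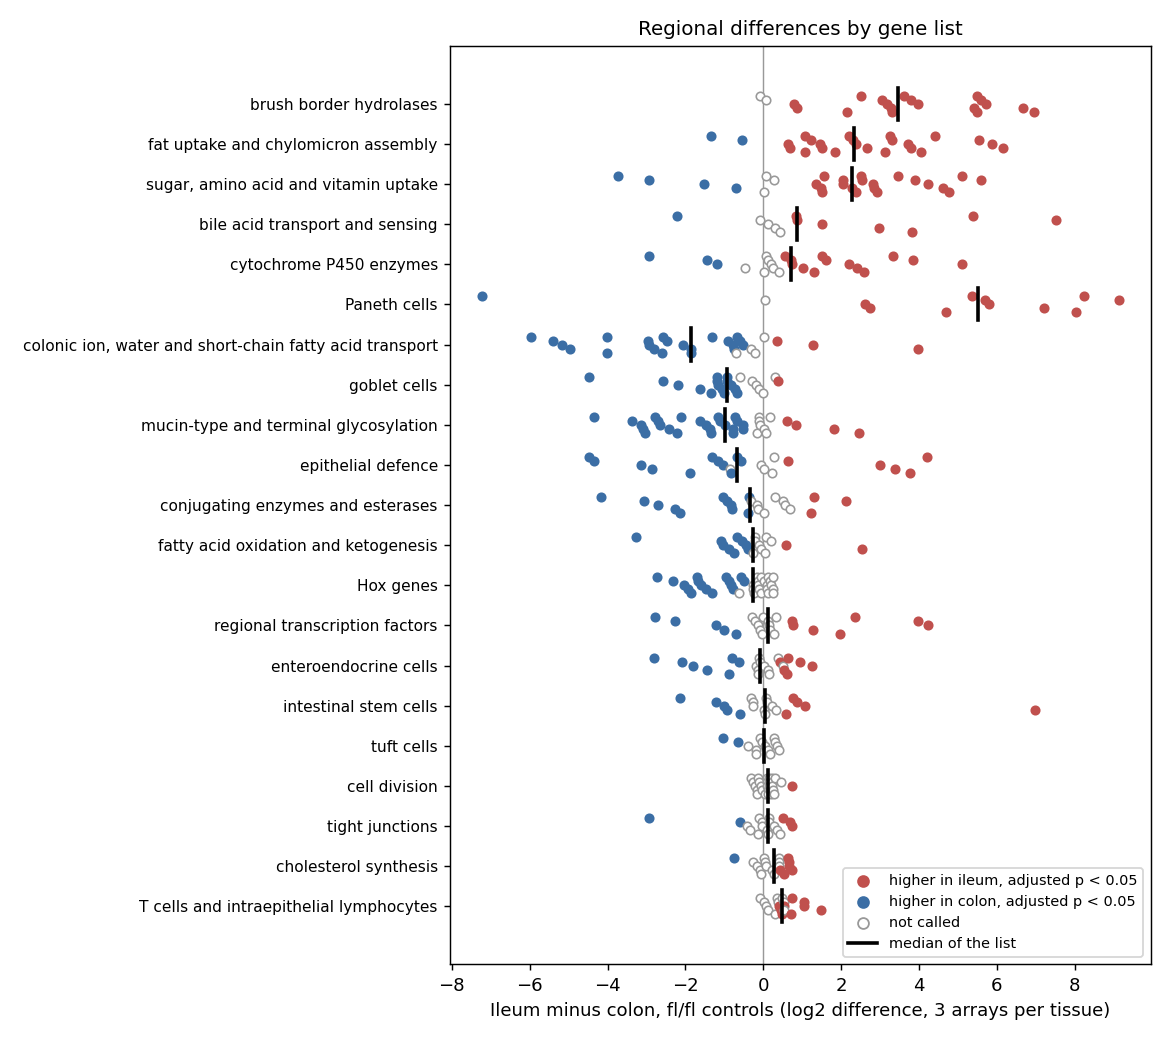
Difference between ileum and colon (log2, horizontal axis) of each measured member of 21 gene lists in fl/fl mice, filled where the adjusted p was under 0.05, with a bar at each list's median. Nutrient, bile acid and Paneth lists lie to the right of 0, and ion transport, goblet and glycosylation lists to the left.

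Goblet cell genes were present in both segments and mostly higher in colon. Of 22 measured, 15 were higher in colon and 1 in ileum, with a median of −0.93. *Muc2*, the gel-forming mucin, read 12.50, 12.64 and 12.63 in ileum and 13.53, 13.52 and 13.48 in colon, a difference of −0.92 (adjusted p = 0.000231). *Agr2*, needed for mucin folding, differed by −1.18, and the secretory lineage factors *Atoh1* and *Spdef* by −1.18 and −1.34. *Creb3l1* (−2.57) and *Muc4* (−2.19) stood lower still. *Retnlb*, a resistin-like secreted protein, read 4.27, 3.60 and 4.11 in ileum and 9.56, 9.02 and 6.82 in colon, with colon replicate 3 lowest (difference −4.47, and −5.30 without that array). *Fcgbp* and *Zg16*, which are also goblet products, did not pass the test (−0.02 and −0.12). *Tff3* (0.37) was the gene higher in ileum, a call lost without any 1 array.

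Enzymes of mucin-type and terminal glycosylation, not all of them specific to mucins, followed the goblet genes. Of 35 measured, 24 were higher in colon and 4 in ileum, with a median of −0.98. *Fut2*, the fucosyltransferase of the intestinal surface, read 5.22, 5.22 and 5.33 in ileum and 9.82, 9.53 and 9.47 in colon, 20.4-fold apart (adjusted p = 6.49e-08). *C1galt1*, which starts core 1 glycans, differed by −1.36 and *B3gnt6*, which starts core 3 glycans, by −2.71. *B3gnt7* and *B3gnt5*, further acetylglucosaminyl transferases, were at −3.03 and −3.10. The sialyltransferases were divided, with *St3gal3* at −3.37, *St6gal1* at −2.79 and *St3gal4* at 1.80. *Gcnt4* was the largest toward ileum, at 2.45.

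Defence genes split by family. Of 21 measured, 5 were higher in ileum and 11 in colon, with a median of −0.69. The REG3 lectins, close in sequence and secreted against bacteria, were higher in ileum, with *Reg3b* at 2.99, *Reg3g* at 3.76 and *Reg3a* at 4.21. *Reg3g* read 11.07, 10.86 and 10.86 in ileum against 7.13, 6.55 and 7.83 in colon, so that the groups stood well apart. *Nos2*, the inducible nitric oxide synthase, was also higher in ileum, by 3.39 (8.26, 7.80 and 7.61 against 4.34, 4.69 and 4.47). Toward colon stood *Lypd8*, which keeps flagellated bacteria off the epithelium (−1.32), *Pigr*, the carrier of secretory antibody (−1.02), *Duox2* (−0.69) and *Il18* (−1.17). *Gsdmc2* and *Gsdmc3*, gasdermins of near-identical sequence, were at −3.14 and −2.85. *Reg4* did not pass the test (8.15, 9.49 and 9.10 against 9.70, 9.96 and 9.68), and ileum replicate 1 was its lowest array.

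Enteroendocrine genes went in both directions, with 6 of 23 higher in ileum, 7 in colon and a median of −0.09. *Nts* (neurotensin) was higher in ileum, at 7.35, 7.52 and 7.59 against 6.07, 6.16 and 6.51 (difference 1.24). *Sst* (somatostatin) was at 0.95. *Insl5*, a hormone of colonic L cells, read 3.86, 3.49 and 3.41 in ileum and 6.45, 6.12 and 6.62 in colon (difference −2.81, adjusted p = 4.33e-06). *Gcg* and *Pyy*, the other L cell hormones, were higher in colon by less, at −0.89 and −0.80. *Tph1*, the enzyme of serotonin synthesis in enterochromaffin cells, was at −2.08 and the granule protein *Chga* at −1.80. *Cck* was near the array median in both segments (0.01). *Gip* (0.60), *Sct* (0.53) and *Scg2* (0.43) lost their calls when single arrays were left out.

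The upstream 250 bases of *Insl5* are shown because they hold the GATA word AGATAA 3 times on the gene's own strand, the most matches of any promoter searched among the named genes.
Insl5 promoter, minus strand of chr4:103026729-103026978: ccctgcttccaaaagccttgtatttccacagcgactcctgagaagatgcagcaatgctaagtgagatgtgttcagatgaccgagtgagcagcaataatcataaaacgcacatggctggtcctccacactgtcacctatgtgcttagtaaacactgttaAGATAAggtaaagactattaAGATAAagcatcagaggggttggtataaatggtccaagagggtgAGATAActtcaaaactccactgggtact
The words begin at bases 159, 179 and 223 of this stretch. As above, this describes letters and not a site.

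Of 14 tuft cell genes 0 were higher in ileum and 2 in colon, against 7.20% and 10.4% of all clusters, with a median of 0.01. *Hpgds*, a prostaglandin D synthase, was at −1.03 and *Gnat3*, a taste G protein, at −0.65, while *Dclk1*, *Trpm5* and *Pou2f3* did not pass the test. The *Gnat3* call was lost without ileum replicate 1, ileum replicate 3, colon replicate 1 or colon replicate 3. Of 28 measured cell division genes, 1 (*Birc5*, 0.73) was higher in ileum and 0 in colon, against backgrounds of 7.20% and 10.4%, with a median of 0.12. The list averaged 6.45, 6.74 and 6.85 on ileal arrays and 6.57 to 6.61 on colonic ones.

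Differences of the stem cell genes ran from −2.14 to 6.97, the largest being that of *Olfm4*. *Olfm4*, which marks crypt base cells of the small intestine, read 10.61, 10.87 and 10.82 in ileum and 4.72, 3.62 and 3.07 in colon, 125-fold apart (adjusted p = 1.62e-06). With it, 5 of 19 genes were higher in ileum and 5 in colon, and the median was 0.05. *Lgr5*, the Wnt-driven stem cell receptor, differed by 0.75 (adjusted p = 0.00939), and *Axin2*, a Wnt target, by 1.07. *Ascl2* did not pass the test (−0.26, adjusted p = 0.422). *Prom1* (−2.14), *Lrig1* (−1.004) and *Cd44* (−0.93) were higher in colon. *Smoc2* (0.59) lost its call without any 1 of 5 arrays.

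Enzymes that act on drugs and lipids were divided between the segments. Of all 94 cytochrome P450 genes with a cluster of their own, 17 were higher in ileum and 13 in colon, with a median of 0.08. Of the 23 on the chosen list 13 were higher in ileum and 3 in colon, with a median of 0.70, so the lean of the list toward ileum was not that of the whole family. *Cyp3a25* read 8.37, 8.16 and 7.94 in ileum and 2.96, 2.51 and 3.72 in colon, 34.1-fold apart. *Cyp4v3*, *Cyp2u1* and *Cyp4f14*, which oxidise fatty acids, differed by 3.84, 3.34 and 2.58. *Cyp2b10*, an inducible enzyme, read 6.65, 5.79 and 4.91 against 3.24, 3.50 and 3.41 (difference 2.40). The 3 genes of the list higher in colon belonged to the Cyp2c family, led by *Cyp2c55* at 8.997, 10.04 and 9.73 against 12.45, 12.54 and 12.54 (difference −2.92). Outside the list, genes higher in colon included *Cyp2d34* (−3.40), *Cyp2d12* (−3.29), *Cyp2d13* (−2.59) and *Cyp2f2* (−2.23), named after their values were seen. Copies within the Cyp2c and Cyp2d families are close in sequence and their probes may overlap in what they read. Of 22 conjugating enzymes and esterases 3 were higher in ileum and 11 in colon, with a median of −0.34. *Sult1a1*, a phenol sulfotransferase, was at −4.17, *Ces1g* at −3.06 and *Adh1*, an alcohol dehydrogenase, at −2.70, whereas *Sult2b1*, a sterol sulfotransferase, was at 2.12.

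In fatty acid oxidation and ketogenesis 9 of 19 measured genes were higher in colon and 2 in ileum, with a median of −0.26. *Pparg*, the nuclear receptor, read 4.68, 4.95 and 4.999 in ileum and 8.09, 8.14 and 8.17 in colon, 9.58-fold apart (adjusted p = 2.24e-07). *Cpt1a*, which admits long-chain fatty acids to mitochondria, differed by −0.76 and *Acads*, which oxidises short-chain ones, by −1.05. *Angptl4*, a lipase inhibitor and PPAR target, was higher in ileum by 2.53, and thus ran against *Pparg*. Of 19 cholesterol synthesis genes 6 were higher in ileum and 1 in colon, with small differences (median 0.28), from −0.75 for *Dhcr7* to 0.74 for *Sc5d*. The calls toward ileum numbered 3 without ileum replicate 3 or without colon replicate 2, and 7 without ileum replicate 1. The list averaged 7.57, 7.71 and 7.95 on ileal arrays and 7.46 to 7.63 on colonic ones, so the tissues overlapped.

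Of 18 tight junction genes 3 were higher in ileum and 2 in colon, against 7.20% and 10.4% of all clusters, with a median of 0.11. *Cldn8*, a sealing claudin of the distal colon, read 4.77, 5.68 and 5.83 in ileum and 8.32, 8.16 and 8.62 in colon (difference −2.94). *Cldn15*, *Cldn4* and *Cldn7* were higher in ileum by 0.74, 0.68 and 0.51. *Ocln* (0.14), a common strand protein, and *Tjp1* (−0.04), a common scaffold protein, did not pass the test.

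Several large colonic differences lay outside all lists. *Tgm3* read 4.11, 4.44 and 4.26 in ileum and 10.58, 10.54 and 10.99 in colon, 86.5-fold apart (adjusted p = 2.53e-08). *Plet1*, a surface protein of progenitor cells, was at −5.81, *Sycn* (syncollin, a granule protein) at −5.40 and *Hao2*, a peroxisomal oxidase, at −4.80. *Sptssb*, a subunit of serine palmitoyltransferase, was at −4.81, *Fa2h*, which hydroxylates fatty acids, at −4.31 and the lipid transporter *Abca12* at −4.39. *Ano1*, a calcium-activated chloride channel, was at −4.21, and the matrix-associated proteins *Ccn3* and *Thbs4* at −4.64 and −4.36. None of these groups overlapped between the tissues, which the rule for naming them required.

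Lymphocyte genes were somewhat higher in ileum. Of 19 T cell and intraepithelial lymphocyte genes 9 were higher in ileum and 0 in colon, with a median of 0.47, and the list averaged 5.16, 4.79 and 4.81 on ileal arrays against 4.37 to 4.48 on colonic ones. *Gzma*, a granzyme, read 5.77, 5.23 and 4.66 against 3.80, 3.68 and 3.73 (difference 1.48), and *Cd3e*, a T cell receptor subunit, 7.41, 6.73 and 7.16 against 6.16, 6.35 and 6.57, a call lost without any 1 of 4 arrays. The number of calls was 4 without ileum replicate 1, 4 without colon replicate 1, and between 5 and 8 without each of the other 4 arrays. In bulk samples, more cells of a type and more RNA per cell cannot be told apart. Of 9 MHC class II genes 4 were called higher in ileum, each with an adjusted p between 0.0372 and 0.0490, and 0 remained without ileum replicate 3 or without colon replicate 1. *H2-Ab1* read 7.18, 5.88 and 6.20 in ileum, highest in replicate 1, the array that was also highest for the lymphocyte list, and the part of immune cells in the class II values was not tested. Of 7 B cell and plasma cell genes 1 (*Cd79a*, 0.73) was higher in ileum, a call lost without ileum replicate 1, ileum replicate 3 or colon replicate 1.

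*Nfat5* itself, the osmotic stress factor whose floxed alleles define these mice, lies on chromosome 8 from 107293435 to 107379517 (GRCm38.p6). It read 8.03, 8.03 and 8.17 in ileum and 7.49, 7.45 and 7.54 in colon, a difference of 0.58 (standard error 0.10, adjusted p = 0.00371). Of its 7 measured genes of osmoprotection, itself included, 2 were higher in ileum and 1 in colon. *Slc6a6*, the taurine carrier, differed by 0.48, a call lost without ileum replicate 2, ileum replicate 3 or colon replicate 3. *Slc38a2*, an amino acid carrier, was at −0.61. *Hspa1b*, an inducible HSP70, read 7.87, 7.77 and 6.43 in ileum and 8.26, 7.56 and 6.45 in colon, so that replicate 3 was low in both tissues and the difference was −0.07 (adjusted p = 0.951).

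The same contrast was then made in the 6 arrays labelled *Nfat5*IEC-KO, which share no array with the controls. There 2538 clusters were higher in ileum (10% of those tested) and 3734 in colon (14.7%). Of the 1824 clusters higher in control ileum 1403 were called the same way, which is 76.9% of the control calls and 55.3% of the others. Of the 2637 higher in control colon 2143 were, 81.3% and 57.4%. Over the clusters called in controls, the median size of the difference was 0.70 in controls and 0.79 in the other genotype. *Fabp6* differed by 7.51 and 7.59 in the 2 genotypes, *Gata5* by 4.22 and 3.92, *Aqp8* by −4.00 and −3.98, and *Hoxb13* by −2.73 and −2.87. *Nfat5* read 8.09, 7.84 and 8.01 in ileum and 6.92, 6.90 and 6.997 in colon of mice labelled *Nfat5*IEC-KO. The colonic values lay below those of the controls, while the ileal values overlapped them, so this cluster did not bear out the label there. The paper itself reports reduced *Nfat5* mRNA in epithelial cells and diminished NFAT5 protein in the epithelium of its knockout mice. Whether the probes of this cluster lie in the deleted part of the gene was not checked.

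Whether a regional difference itself differed with genotype was tested as an interaction on all 12 arrays. By limma 0 clusters passed, with a smallest adjusted p of 0.0609 and 2744 of 25341 clusters at an unadjusted p under 0.05. With no difference in any cluster, 1267 would be expected at that unadjusted p. With a trended, robust prior 84 passed, and without ileum *Nfat5*IEC-KO replicate 2 the count was 239. The Paneth cell list had a median difference of 5.52 in controls and 3.97 in mice labelled *Nfat5*IEC-KO. The cell division list was at 0.12 and −0.50, with 0 and 13 of 28 genes higher in colon. Whether these medians differ was not tested. Clusters called in opposite directions numbered 4, all higher in colon of the controls and in ileum of the other genotype. They were *Mt1* and *Mt2*, which encode zinc-binding metallothioneins, *Ppargc1a*, a coactivator of mitochondrial genes, and the keratin *Krt36*.

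**Figure D5:**
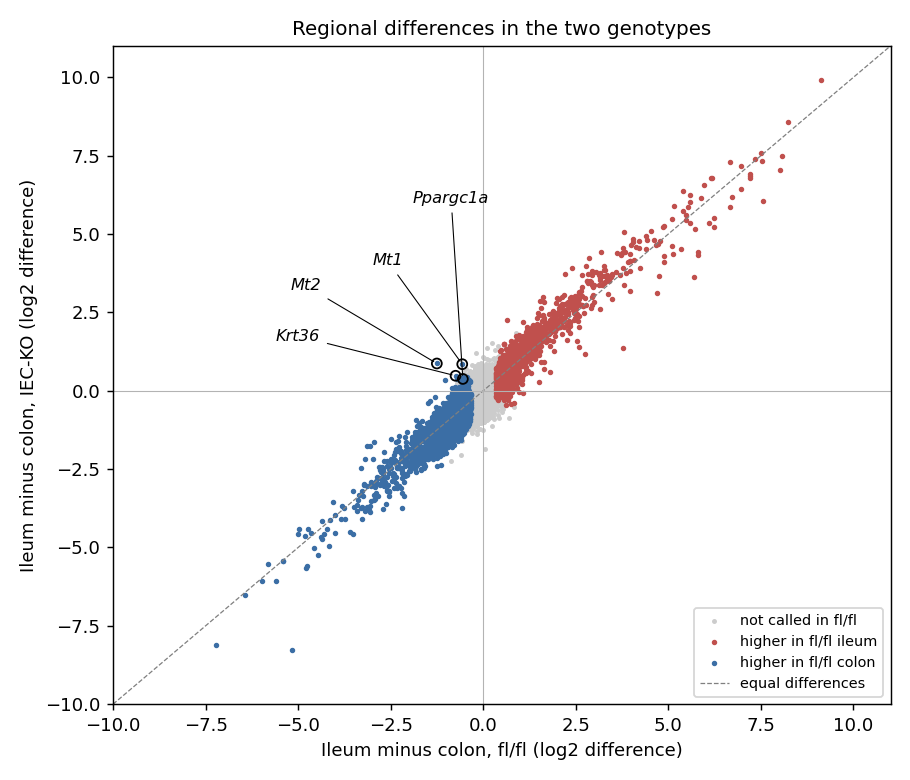
Difference between ileum and colon (log2) of 25341 clusters in fl/fl mice (horizontal axis) and in mice labelled *Nfat5*IEC-KO (vertical axis), coloured by the call in fl/fl mice, with a dashed line of equal differences. Called clusters follow the line, and the 4 circled genes were called in opposite directions.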

How the data were processed

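The authors deposited log2 expression values per transcript cluster of an Affymetrix mouse array, made with Transcriptome Analysis Console per the submitters' processing notes, which also name mm10. Software version, normalization and background correction were not given in the sources used here. Detection calls and scan dates were not among the values used, so array batches were not tested, and the 3 arrays per group limit the precision. Ileum was compared with colon by limma 3.58.1 in R 4.3.3 (lmFit and eBayes) on the 6 control arrays, with Benjamini-Hochberg adjustment over all 25341 clusters with a symbol and a threshold of 0.05. The other genotype was fitted in the same way and the interaction on all 12 arrays. The script was tested on simulated data. Where a gene on a list had several clusters, the cluster with the highest mean was used. For *Kcnma1*, *Nr3c2*, *Lgr5* and *Adh1* only that cluster was called, and no other cluster of a list gene was called in the opposite direction.

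The members and gene lists were chosen with earlier results of these data known. Genes were named by a rule: core members of each list, up to 6 further called members per direction and 2 not called, the 20 largest differences in each direction without overlap, and *Nfat5*. MicroRNAs and some further list members were named after their values were seen. Alternatives covered the mouse number as a block, all arrays in 1 fit, the variance model, normalization, centring, filters, the clusters tested, the methods' t-test, a fold threshold within the test and leaving out each array. Promoter and microRNA sequences are from RefSeq (GRCm38.p6), and of the 23521 clusters with 1 symbol 23328 matched that annotation.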

Additional observations from a re-analysis of the deposited data

Results flagged for a closer look

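Regional differences called in opposite directions in the 2 genotypes drew attention for 4 genes, each with fl/fl values first. *Mt2* differed by −1.25 in *Nfat5*fl/fl mice and by 0.87 in mice labelled *Nfat5*IEC-KO. Its ileal arrays were at 7.17, 7.56 and 7.45 and at 10.33, 9.97 and 10.36 in these groups, and its colonic arrays at 8.29, 8.74 and 8.91 and at 8.99, 9.47 and 9.58. The test of the difference between genotypes gave an adjusted p of 0.0609 (limma), which missed the threshold.

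*Mt1* differed by −0.567 and 0.848 (adjusted p = 0.0732 for the difference between genotypes, limma). *Ppargc1a* differed by −0.55 and 0.377 (adjusted p = 0.155, limma). *Krt36* differed by −0.747 and 0.479 (adjusted p = 0.197, limma), at levels below the array median on most arrays. None of these 4 interactions passed the threshold in this fit. With a trended, robust prior *Mt2* and *Mt1* did pass (limma, adjusted p = 0.00597 and 0.00377). The fl/fl calls of *Mt1* and *Krt36* were each lost without ileum replicate 1, ileum replicate 3, colon replicate 2 or colon replicate 3. That of *Ppargc1a* was lost without ileum replicate 1, and that of *Mt2* was kept without any 1 array.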

How the results depend on the processing

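The counts of 1824 clusters higher in ileum and 2637 in colon stayed within 1.5 times under every alternative with adjusted p-values other than a test against a log2 difference of 1 (limma's treat), which called 288 and 294, also against the 535 and 727 called with a 2-fold difference. The methods' t-test called 1275 and 1814 after Benjamini-Hochberg adjustment, and 2874 and 3879 at an unadjusted p under 0.05. Leaving out each array gave 1402 to 1568 and 1969 to 2339. Centring the arrays on their medians gave 1547 and 3032 and lowered the ileal share of calls from 40.9% to 33.8%, with a shift of the median of all clusters to −0.0486. The mouse number as a replicate block gave 1630 and 2315. Deviations of arrays of the same number were hardly correlated (r = −0.0147, −0.00238 and 0.0532 across clusters), which cannot settle whether they are pairs, since many clusters are dim. The main fit did not pair them, and whether they came from the same mice is not known.

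Of 390 named clusters 299 were called, and 241 of these were called without each array in turn. List medians were less stable under some alternatives. With only clusters of a mean of at least 5, 11 were counted as moved and 16 as the same. Without colon replicate 3, 5 moved, and 3 did with the arrays centred on their medians. Leaving out any other array moved 1 or 2, and quantile normalization moved 0. The difference of *Ang4* changed from 0.05 to −0.62 without colon replicate 3 and lay between −0.62 and 0.47 when single arrays were left out, and the cause was not tested. The interaction with genotype gave 0 clusters, 84 with a trended, robust prior, 9 among clusters with a mean of at least 5, 0 with a replicate block, and 0 to 239 when arrays were left out, the highest without ileum *Nfat5*IEC-KO replicate 2. With 3 arrays per group and no detection calls, small differences and dim genes stay uncertain.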

Other observations

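Gene families outside the lists, chosen after their values were seen, behaved differently from each other. Of 356 solute carrier genes 76 were higher in ileum (21.3%) and 78 in colon (21.9%), so that this family held calls more often than the background of 7.20% and 10.4% in both directions. Their median difference was 0.05, 0.02 after quantile normalization and −0.00262 with the arrays centred on their medians, where 70 and 83 were called. Of 53 cytosolic ribosomal protein genes 1 was higher in ileum and 17 in colon, with a median of −0.29. That median was −0.27 after quantile normalization and −0.34 with the arrays centred on their medians, where 18 and 20 genes were higher in colon.

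Olfactory receptor genes were counted as a family expected to be mostly dim, though intestinal expression of single members was not checked. Of 1089 measured, 17 were higher in ileum (1.56%) and 14 in colon (1.29%), and their median difference was 0.000127. This balance moved with the scaling, to 13 and 17 after quantile normalization and to 11 and 24 (median −0.0481) with the arrays centred on their medians.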
